A study of Mus musculus with 6 samples.

Results

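The TNF superfamily comprises ligands that act mostly as trimers on the cell surface and the receptors that bind them. Its genes were taken by symbol: every gene of the count table named as a numbered TNF receptor or TNF ligand, together with Ltbr, Lta, Ltb, Tnf, Fas, Fasl, Cd27, Cd70, Cd40, Cd40lg, Ngfr and Eda2r. This gave 44 of the 26332 genes in the table, of which 26 encode receptors, 17 encode ligands and 1 is an antisense RNA (Tnfsf13os). Receptors of the family recruit TRAF adaptors, which lead to NF-kB, or, where they carry a death domain, adaptors that can lead to caspase activation. In the thymus, lymphotoxin and RANK signals from lymphoid cells shape the medullary epithelium, and CD27 is a costimulatory receptor that appears on T-cell precursors as they mature.

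RNA was measured in DN3 thymocytes, the CD25+ CD44- precursors that rearrange the gene of the T-cell receptor β chain. The comparison was between 4 wild-type (WT) C57BL/6 mice and 2 C57BL/6 mice with a knockout (KO) of Tcf7, which encodes the transcription factor TCF-1, and it bears on what TCF-1 does in these cells. Each library came from an individual mouse: the males were WT 4 and KO 1, and the other 3 WT mice and KO 2 were females. The sort also required that cells lacked surface TCRβ, CD3, CD8, NK1.1 and binding of CD1d tetramers, and the labels give neither the ages nor the part of Tcf7 that was removed.

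Total counts were between 23711513 and 41666797 in WT and were 19589938 in KO 1 and 13673860 in KO 2, so low levels were measured less precisely in KO. Tcf7 itself stood at 2094 to 2326 CPM (the count scaled to library size) in WT, against 1133 and 1022 CPM in the libraries labelled KO 1 and KO 2, so its RNA was reduced but present. Of 10 DN3 markers, such as Il2ra, Ptcra and Rag1, none was at 0 in any library, and their summed level was 9621 to 10491 CPM in WT, against 8225 in KO 1 and 8014 in KO 2. In the edgeR test described below, 5 of these 10 were lower in KO and 1 was higher. Several marker lists of other cells stood apart in KO. The summed level of 12 B-cell markers was 257 to 286 CPM in WT, against 814 in KO 1 and 1213 in KO 2, with 7 of the 12 above the WT range in KO 1 and all 12 in KO 2. That of 10 markers of double-positive and mature T cells was 532 to 686 CPM in WT, against 1321 in KO 1 and 2746 in KO 2. For 10 markers of NK and innate lymphoid cells it was 259 to 303 CPM in WT, against 1389 in KO 1 and 1496 in KO 2, carried by Gzma, while Ncr1 and Klre1 were at 0 in both KO libraries. Myeloid and dendritic markers summed to 21.2 to 25.8 CPM over 10 genes in WT, to 9.88 in KO 1 and to 29.1 in KO 2, and 8 thymic epithelial markers to 171 to 178, 46.3 and 60.6 CPM, carried by Epcam, with Krt5 and Foxn1 at 0 in every library. In such bulk samples, fewer cells of a type and less RNA per cell cannot be told apart.

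Promoter sequences were looked at for 2 short motifs, because TCF-1 binds DNA through a core written CTTTGA or CTTTGT, and because NF-kB, the main target of the family's signals, is also known to act on genes of the family. RefSeq's promoter table (GRCm38.p6) held 37 promoters of 33 of the 44 genes, and the 250 bases before each start were searched on both strands. The promoters below are those of Ltbr, the receptor gene with no read in KO, of its neighbour Tnfrsf1a, of Tnfrsf21, a receptor gene lower in KO, of Tnfsf10, a ligand gene higher in KO, and of Ltb, the most abundant ligand RNA. Capitals mark a match to the TCF core in Tnfrsf1a, Tnfrsf21 and Tnfsf10 (written ACAAAG where CTTTGT is on the opposite strand) and to the NF-kB motif (GGG, 2 bases of any kind, TTTCC), also as its reverse complement, in Ltb.
Ltbr, chr6:125313886-125314135, minus strand: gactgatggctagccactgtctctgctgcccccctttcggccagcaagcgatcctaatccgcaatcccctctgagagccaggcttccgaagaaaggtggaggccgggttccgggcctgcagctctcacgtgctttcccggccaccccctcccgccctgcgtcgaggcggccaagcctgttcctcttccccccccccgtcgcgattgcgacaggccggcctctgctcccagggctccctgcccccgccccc
Tnfrsf1a, chr6:125349473-125349722, plus strand: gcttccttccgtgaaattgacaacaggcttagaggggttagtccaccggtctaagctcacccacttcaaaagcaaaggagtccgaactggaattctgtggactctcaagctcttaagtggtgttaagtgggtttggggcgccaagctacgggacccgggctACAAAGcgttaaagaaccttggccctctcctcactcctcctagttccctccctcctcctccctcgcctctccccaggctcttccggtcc
Tnfrsf21, chr17:43016305-43016554, plus strand: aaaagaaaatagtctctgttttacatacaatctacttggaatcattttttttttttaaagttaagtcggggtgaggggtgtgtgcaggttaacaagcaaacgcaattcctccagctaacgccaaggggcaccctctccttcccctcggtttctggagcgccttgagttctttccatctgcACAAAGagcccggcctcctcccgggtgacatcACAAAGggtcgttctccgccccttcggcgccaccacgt
Tnfsf10, chr3:27316827-27317076, plus strand: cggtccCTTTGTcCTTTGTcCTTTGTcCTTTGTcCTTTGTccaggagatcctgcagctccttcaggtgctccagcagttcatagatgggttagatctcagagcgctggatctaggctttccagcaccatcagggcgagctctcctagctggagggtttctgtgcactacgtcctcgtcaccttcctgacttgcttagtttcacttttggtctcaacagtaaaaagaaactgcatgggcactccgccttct
Ltb, chr17:35194257-35194506, plus strand: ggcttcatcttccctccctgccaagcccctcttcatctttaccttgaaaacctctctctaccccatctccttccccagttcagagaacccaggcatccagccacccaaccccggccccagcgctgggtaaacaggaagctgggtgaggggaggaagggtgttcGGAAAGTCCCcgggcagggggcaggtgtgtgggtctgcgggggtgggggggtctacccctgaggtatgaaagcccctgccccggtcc
The Ltbr window held neither motif. The Tnfrsf21 window held CTTTGT on the opposite strand at 70 and 38 bases before the start, and the Tnfsf10 window held it 5 times in a short repeat between 244 and 216 bases before the start. A TCF core of either spelling was present in 14 of the 37 promoters (37.8%), against 27.6% of all 32851 promoters in the table. The NF-kB motif was present in 3 of the 37 (8.11%), against 1.41% of all. Among promoters of members higher in KO, 5 of 11 held a TCF core (45.5%), against 4 of 12 for members that were tested and not called (33.3%). It was 1 of 3 for members lower in KO and 4 of 11 for members not tested (36.4%). These sets are too small to be read as a difference. A match is a description of the letters in the window and does not show that a factor binds there.

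In WT cells the family's RNA was dominated by few genes. Levels of different genes were compared per kilobase of gene length (RPKM), since longer genes collect more reads. Cd27 led with 99.7 RPKM ± 2.66 (SD, n = 4), followed by Ltb, a membrane subunit of lymphotoxin, with 50.5 RPKM ± 3.57, and their ranges did not overlap. Below them came 5 receptors whose neighbours in the order overlapped in range: Tnfrsf1a at 25.0 RPKM, Tnfrsf13b at 24.1, Tnfrsf14 at 21.6, Tnfrsf18 at 18.9 and Tnfrsf1b at 17.6. Tnfrsf8 (10.8 RPKM) and the ligand gene Tnfsf10 (9.25 RPKM) formed the next pair, followed by Tnfrsf21 at 7.32 RPKM, apart from both. Tnfsf11, Ltbr and Tnfrsf26 lay at 5.95, 5.09 and 4.63 RPKM, with overlapping ranges between neighbours. In all, 18 members reached 1 RPKM in the WT mean.

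**Figure D1:**
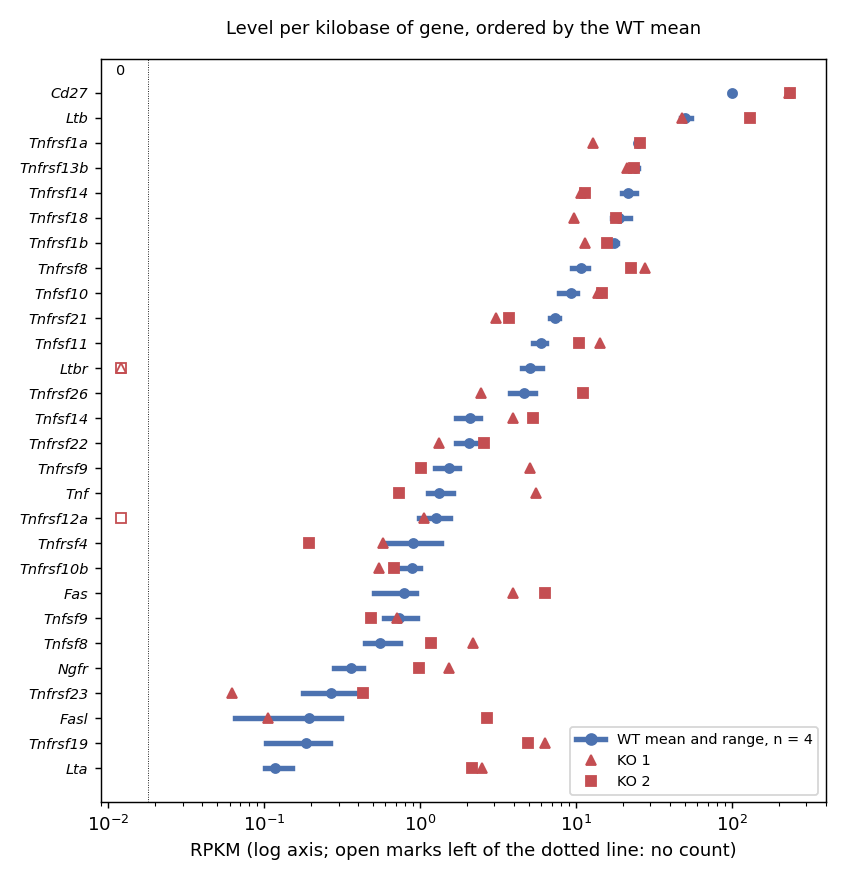
Level of each tested member in RPKM on a log axis, ordered by the WT mean; blue points and bars are the mean and range of 4 WT libraries, red triangles KO 1 and red squares KO 2, with open marks left of the dotted line for no count. Cd27 and Ltb lead in every library, Ltbr has no count in either KO library, and Tnfrsf19 and Lta, lowest in WT, lie in the middle of the order in KO.

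The order in KO kept Cd27 first and Ltb second in both libraries. Tnfrsf8 moved from eighth place in WT to places 3 and 5 in KO 1 and KO 2, and Tnfrsf19 from place 27 to places 11 and 15. Summed over all receptor genes, the level was 442, 428, 432 and 457 CPM in WT 1 to 4, against 608 and 700.0 CPM in KO 1 and KO 2. Cd27 made up between 35.6% and 36.1% of that sum in WT and 60.2% and 53.0% in KO 1 and KO 2. Without Cd27 the sums were 273 to 294 CPM in WT, against 242 in KO 1 and 329 in KO 2, so one KO library was below and the other above the WT range. The summed ligand level was 118 to 128 CPM in WT, against 180.2 and 262 CPM in KO 1 and KO 2.

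KO was compared with WT by edgeR's quasi-likelihood test on the counts of all genes, with sex as a second term, and genes counted as called where the p adjusted by Benjamini and Hochberg was under 0.05. Of the 44 members, 28 passed the filter on low counts and were tested (19 receptors and 9 ligands). 13 of the 28 were called (46.4%), 10 higher and 3 lower in KO, where 30.7% of all 13294 tested genes were called. Higher calls made up 35.7% of the members against 14.1% of all genes, and lower calls 10.7% against 16.5%. Among the receptors 8 of 19 were called, 5 higher and 3 lower, and among the ligands 5 of 9, all higher. Lta passed the filter through its KO libraries only and Ltbr through its WT libraries only, so neither could be called the other way. The median log2 change was 1.04 for ligands and -0.13 for receptors, beside -0.04 for all tested genes. With a library left out, the member counts moved in the direction of those of all genes, but by less without WT 1, WT 2 or WT 3. Without KO 1, 21 of 31 members were called (14 receptors), against 61.9% of all genes, and without KO 2, 21 of 29 (13 receptors), against 68.5%. Without WT 1, WT 2 or WT 3, 11 of 27, 9 of 28 and 9 of 28 members were called, with 3, 2 and 2 ligands, where the share of all genes was 12.6%, 12.9% and 13.2%. The summed levels of B-cell and mature T-cell markers were higher in both KO libraries too, as given above. The summed rise of the NK and innate lymphoid list was carried by Gzma. Of its 10 markers, 3 were above the WT range in KO 1 and 5 in KO 2. The part of such cells or transcripts in the members' calls was not tested.

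**Figure D2:**
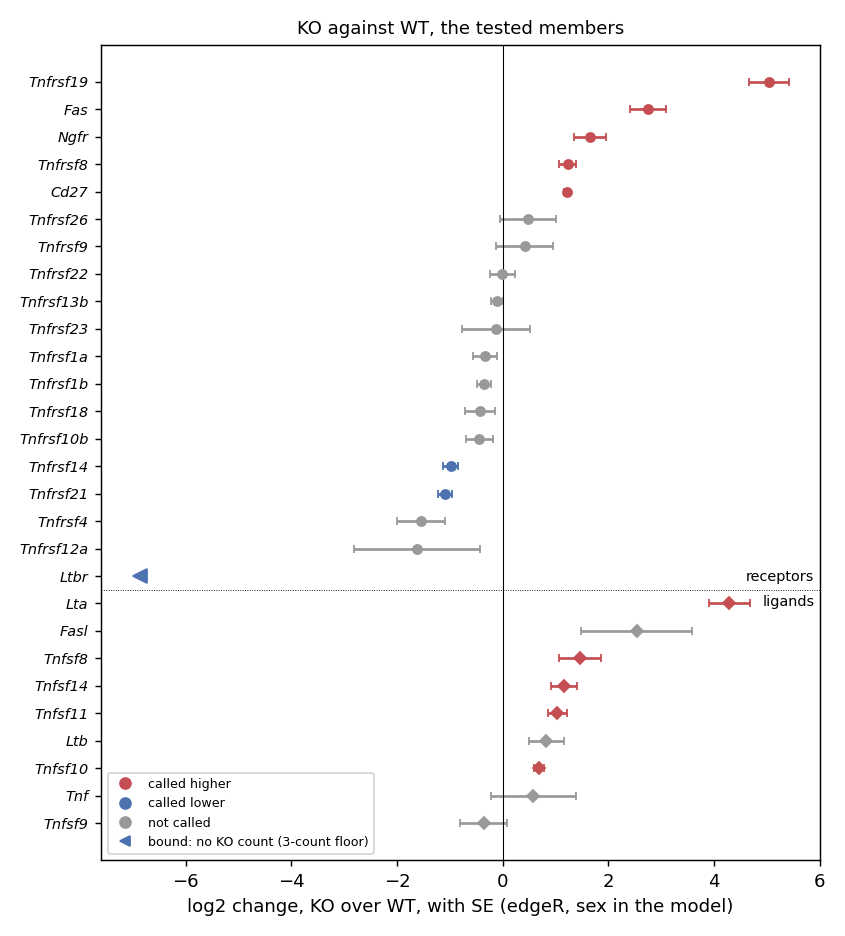
Log2 change of KO over WT from edgeR for the 28 tested members, receptors above and ligands below the dotted line, with bars for the standard error; red marks were called higher, blue called lower and grey not called, and the arrowhead for Ltbr is a bound from the 3-count floor. Changes run from the bound of Ltbr on the left to Tnfrsf19 at 5.04 on the right, and all 5 called ligands lie on the side of higher levels.

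In all 13 called members both KO libraries lay beyond the most extreme WT library in the called direction, and in 3 further members both lay below every WT library without a call (Tnfrsf10b, Tnfrsf1b and Tnfrsf4). That is 16 of 28 members, against 51.5% of all tested genes, a share near the background. The 2 KO libraries differed more from each other than the WT libraries did, with a chi-square per degree of freedom of 104 between them, against 3.37 to 23.1 between WT libraries. With limma-voom and a separate weight for each genotype, 7 of 28 members were called (Cd27, Tnfrsf19, Fas, Tnfrsf8, Ltbr, Lta and Tnfsf11), against 11.3% of all genes.

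Ltbr, the receptor for membrane lymphotoxin and for LIGHT and an activator of the alternative NF-kB route, was not detected in KO. It had 426, 227, 265 and 361 counts in WT 1 to 4, or 10.3, 9.48, 10.2 and 12.7 CPM, and 0 counts in both KO libraries. A count of 0 allows up to 3 counts, or 0.154 CPM in KO 1 and 0.224 CPM in KO 2. Against 3 counts over both KO libraries together, the pooled WT level of 10.7 CPM was at least 117-fold higher (edgeR adjusted p = 0.000563). The call held in all 16 alternative fits, with adjusted p up to 0.0346. The gene lies at chr6:125306571-125313885, and counts per gene do not show which of its exons were read. The labels give C57BL/6 as the background of both groups and do not say how the knockout line was made, so the loss of Tcf7 and any other difference between the lines at this locus cannot be told apart. The neighbours Cd27 and Tnfrsf1a were read in both KO libraries.

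Tnfrsf14 and Tnfrsf21 were the other called receptors with lower levels. Tnfrsf14 encodes HVEM, a receptor for LIGHT that also engages the inhibitory receptor BTLA, and stood at 17.8, 17.7, 19.9 and 21.7 CPM in WT 1 to 4, against 9.62 and 10.2 CPM in KO 1 and KO 2. Both KO libraries lay well under every WT library and close to each other. The level fell 1.98-fold (log2 -0.98, SE 0.145, edgeR adjusted p = 0.00745). Tnfrsf21, a receptor with a death domain, stood at 28.2, 24.7, 26.8 and 26.6 CPM in WT, against 11.1 and 13.5 CPM in KO, again without overlap. It fell 2.13-fold (log2 -1.09, SE 0.131, edgeR adjusted p = 0.00396). Neither was called with a weight per genotype (limma-voom adjusted p = 0.222 and 0.148).

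Cd27 rose from a high level. It stood at 158, 154, 154 and 163 CPM in WT 1 to 4, against 366 and 371 CPM in KO 1 and KO 2, and both groups were tight, with a WT SD of 4.19 CPM. The change (log2 1.22, SE 0.0607, edgeR adjusted p = 0.000319) was called in all 16 alternatives, between 1.16 and 1.27. Cd70, its only known ligand, had no count in any library. Tnfrsf8, which encodes CD30, a receptor of activated lymphocytes, stood at 18.1, 16.2, 18.7 and 15.0 CPM in WT, against 43.6 and 35.7 CPM in KO. All WT libraries lay far under both KO libraries, and the level rose 2.34-fold (log2 1.23, SE 0.155, edgeR adjusted p = 0.0049).

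The largest rise among the tested members was that of Tnfrsf19, which encodes TROY, a receptor known from skin and the nervous system. It stood at 0.749, 1.04, 1.27 and 0.492 CPM in WT, against 30.4 and 23.5 CPM in KO. The groups were far apart, and the rise was 32.8-fold (log2 5.04, SE 0.374, edgeR adjusted p = 0.00102) and was called in all 16 alternatives. Fas, the death receptor that removes activated lymphocytes, stood at 0.918, 1.59, 1.69 and 1.48 CPM in WT, against 7.11 and 11.4 CPM in KO. It rose 6.71-fold (log2 2.75, SE 0.343, edgeR adjusted p = 0.00472), with KO 2 above KO 1 and both above all WT libraries. Ngfr, the low-affinity neurotrophin receptor, which also has a death domain, stood at 1.43, 0.961, 1.07 and 1.48 CPM in WT, against 5.27 and 3.36 CPM in KO. The groups did not overlap, and the rise was 3.15-fold (log2 1.65, edgeR adjusted p = 0.0146). Its call was lost without WT 2 (adjusted p = 0.0646) or WT 3 (0.0669), in a range over the alternatives of 7.222e-05 to 0.337.

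**Figure D3:**
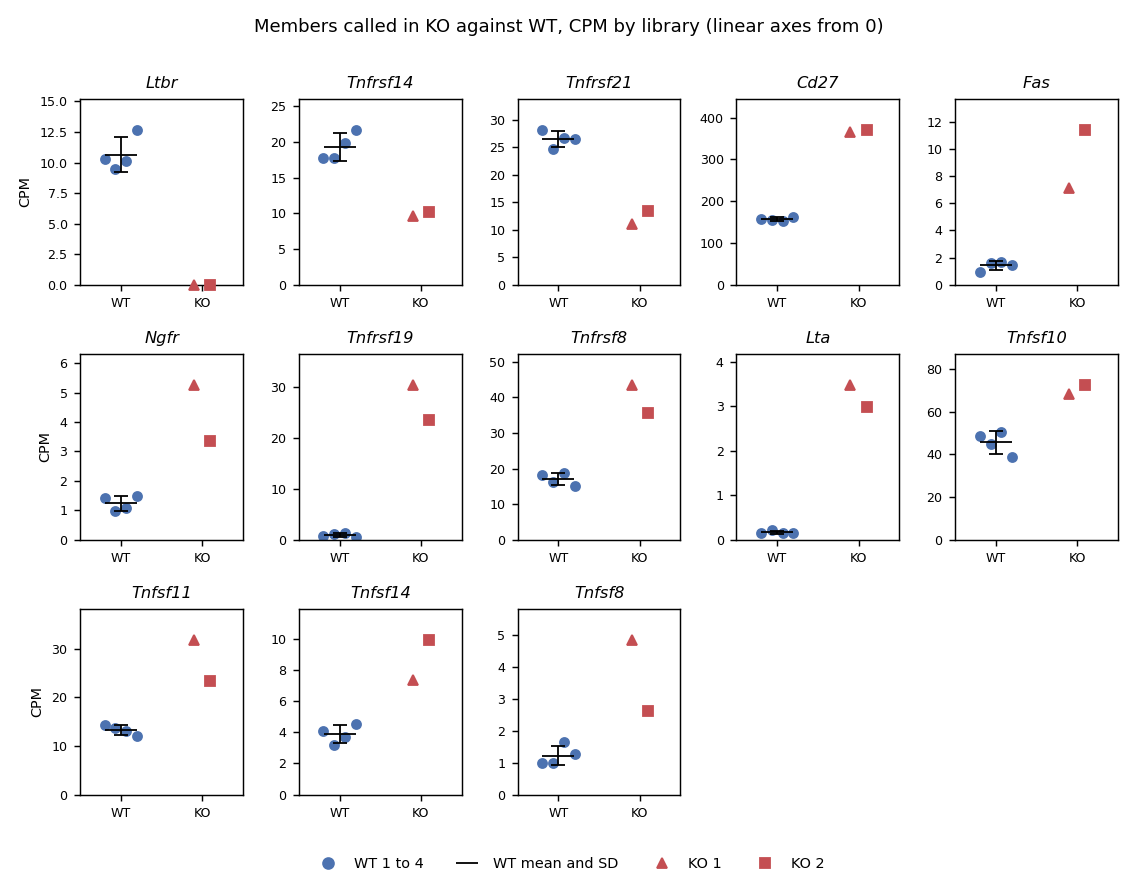
CPM in each library of the 13 called members, on linear axes from 0; blue circles are WT 1 to 4 with their mean and SD in black, red triangles KO 1 and red squares KO 2. In each panel both KO libraries lie outside the WT range, at 0 for Ltbr and at 366 and 371 CPM for Cd27.

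Among the ligands, Lta had the largest change. It encodes lymphotoxin α, which is secreted as a trimer that binds the TNF receptors or anchored on the membrane by lymphotoxin β. It had 6, 5, 4 and 4 counts in WT 1 to 4 and 68 and 40 counts in KO 1 and KO 2, which is 0.141 to 0.209 CPM in WT against 3.48 and 2.99 CPM in KO. It rose 19.5-fold (log2 4.29, SE 0.383, edgeR adjusted p = 0.00162), from a WT level that rests on few reads. Its WT counts lay under the filter's minimum of 10, so Lta passed through its KO libraries alone. It could thus enter the test only as a gene higher in KO.

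Tnfsf10 and Tnfsf11, the 2 most abundant called ligands, rose less. Tnfsf10, which encodes the death ligand TRAIL, stood at 48.8, 44.9, 50.6 and 38.6 CPM in WT, against 68.2 and 72.8 CPM in KO, a rise of 1.61-fold (log2 0.69, SE 0.0946, edgeR adjusted p = 0.00598). With a weight per genotype it was not called (limma-voom adjusted p = 0.0523). Tnfsf11 encodes RANKL, the signal by which thymic lymphoid cells promote the maturation of medullary epithelium. It stood at 14.3, 13.8, 13.1 and 11.9 CPM in WT, against 31.8 and 23.4 CPM in KO, with KO 1 the highest, and rose 2.05-fold (log2 1.04, SE 0.176, edgeR adjusted p = 0.012). Without WT 2 or without WT 3 the adjusted p was 0.0505 or 0.0528, and over the alternatives it ran from 1.944e-11 to 0.168.

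Tnfsf14 and Tnfsf8 were called with less support. Tnfsf14, which encodes LIGHT, stood at 4.10, 3.18, 3.68 and 4.50 CPM in WT, against 7.37 and 9.93 CPM in KO, a rise of 2.23-fold (log2 1.15, SE 0.245, edgeR adjusted p = 0.0218). Tnfsf8, the ligand of CD30, stood at 0.990, 1.00, 1.65 and 1.27 CPM in WT, against 4.86 and 2.61 CPM in KO, a rise of 2.75-fold (log2 1.46, SE 0.399, edgeR adjusted p = 0.0447). In both genes the groups did not overlap, though KO 2 lay close to the highest WT library for Tnfsf8. Neither was called with a weight per genotype. Leaving out WT 1, WT 2 or WT 3 ended the call of Tnfsf14 (adjusted p = 0.0807, 0.0763 and 0.0854, range over alternatives 4.176e-07 to 0.363). The same was seen for Tnfsf8 (adjusted p = 0.132, 0.133 and 0.0667, range 8.941e-05 to 0.39), which was called in 9 of the 16 alternatives.

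By function, 3 of 5 tested receptors with a death domain were called (Fas and Ngfr higher, Tnfrsf21 lower), and Tnfrsf1a and Tnfrsf10b were not. Beside the 30.7% of all genes called, these lists are too short to be read as shares. Of 6 tested costimulatory receptors, Cd27 and Tnfrsf8 were higher and Tnfrsf14 lower, while Tnfrsf4, Tnfrsf9 and Tnfrsf18 were not called. Of 8 genes of the lymphotoxin and TNF axis, Lta and Tnfsf14 were higher, Ltbr and Tnfrsf14 lower, and Tnf, Ltb, Tnfrsf1a and Tnfrsf1b were not called. Both tested decoy receptors for TRAIL, Tnfrsf22 and Tnfrsf23, were not called. These lists overlap and share genes. Eda and Relt, superfamily genes whose symbols lie outside the rule, were tested and not called either.

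Some ligands and their receptors were called in opposite directions. Tnfsf14 was higher while both receptors of LIGHT, Tnfrsf14 and Ltbr, were lower. Tnfsf8 and Tnfrsf8 were both higher. Tnfsf11 was higher, while its receptor gene Tnfrsf11a had 8, 8, 1 and 4 counts in WT and 0 and 23 in KO, too few to test, and its decoy Tnfrsf11b had none. Tnfsf10 was higher, and Tnfrsf10b, the mouse death receptor for TRAIL, stood at 2.83, 2.97, 3.18 and 2.32 CPM in WT, against 1.74 and 2.16 CPM in KO (log2 -0.44, edgeR adjusted p = 0.243). Of 24 ligand and receptor pairs listed, 7 had both genes at 1 CPM or more in the WT mean, and 7 in both KO libraries. 5 pairs were in both sets. The pairs of Ltb and Tnfsf14 with Ltbr were in the WT set only, because Ltbr had no count in KO, and those of Lta with Tnfrsf1a and Tnfrsf1b were in the KO set only.

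Several members lie next to each other on a chromosome, in 8 groups, of which 6 held at least 2 tested members. In 4 of these 6 the neighbours differed in their call, and the same share among other neighbouring genes was not computed. On chromosome 6, Cd27 (125232620 to 125237136) was higher, Ltbr, which starts 74.0 kb further, was without a count in KO, and Tnfrsf1a (125349723 to 125362483), at 117.1 kb, was not called. On chromosome 17, Ltb, Tnf and Lta lie within 11.1 kb. Lta was called higher, and Ltb and Tnf were not called. In a second group on that chromosome, spanning 88.9 kb, Tnfsf14 was higher, Tnfsf9 was not called (log2 -0.36, edgeR adjusted p = 0.579) and Cd70 had no count. On chromosome 4, Tnfrsf8 was higher and Tnfrsf1b, within the same 102.8 kb, was not called. In the other 2 groups no member was called: these were Tnfrsf26, Tnfrsf22 and Tnfrsf23 on chromosome 7, and Tnfrsf4 and Tnfrsf18 on chromosome 4.

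**Figure D4:**
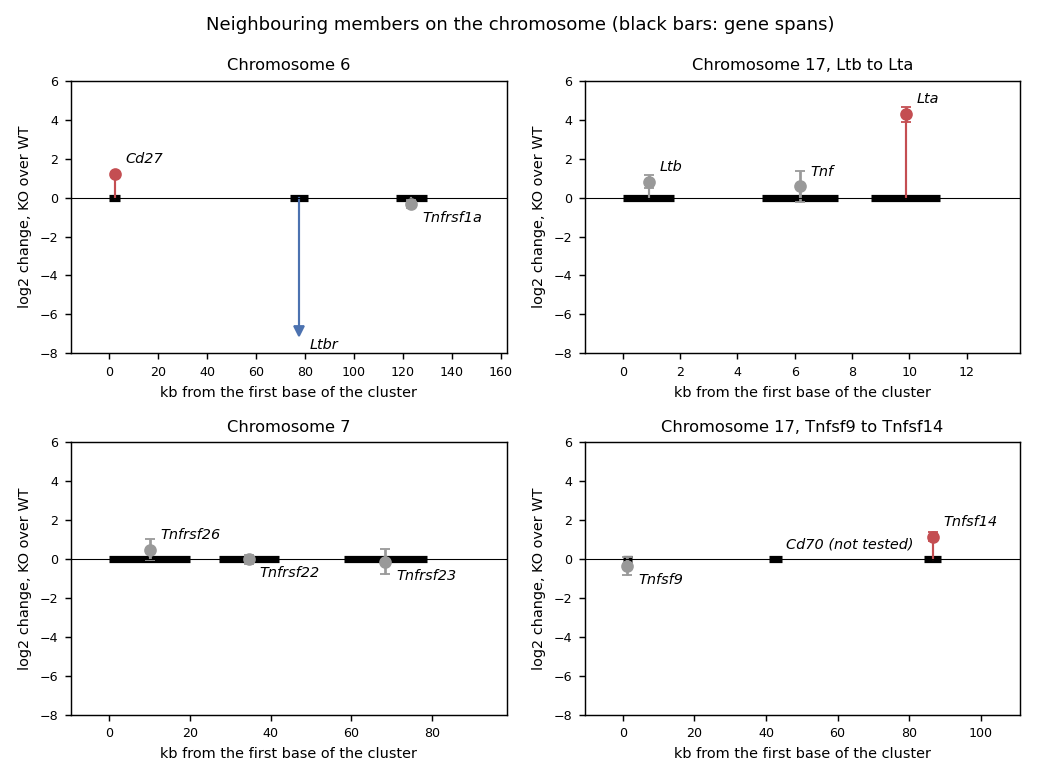
Log2 change of KO over WT with its standard error (y axis) against distance in kb from the first base of each group of neighbouring members (x axis), with black bars for gene spans; red was called higher, blue called lower (arrowhead at the bound for Ltbr) and grey not called. On chromosome 6 Cd27 lies above 0 and Ltbr far below, and on chromosome 17 Lta stands above Ltb and Tnf.

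The other abundant receptors were not called, and the KO libraries stood apart for some of them. Tnfrsf1a, the main TNF receptor with a death domain, stood at 55.2, 53.7, 53.0 and 53.1 CPM in WT, against 27.6 CPM in KO 1 but 55.7 CPM in KO 2. KO 1 was far below all WT libraries, and KO 2 was just above them (log2 -0.33, SE 0.22, edgeR adjusted p = 0.297). Tnfrsf1b, the TNF receptor without a death domain, stood at 87.3, 83.9, 83.5 and 90.7 CPM in WT, against 56.4 and 77.4 CPM in KO, below all WT libraries in both (log2 -0.35, SE 0.135, edgeR adjusted p = 0.107). Tnfrsf18, which encodes GITR, a receptor of regulatory and activated T cells, stood at 17.8, 17.3, 18.7 and 22.3 CPM in WT, against 9.83 and 18.4 CPM in KO. Only KO 1 was outside the WT range (log2 -0.43, edgeR adjusted p = 0.292). Tnfrsf13b, which encodes TACI, a receptor known from B cells, stood at 18.3, 18.1, 17.1 and 18.7 CPM in WT, against 15.9 and 17.6 CPM in KO, with KO 2 inside the WT range and KO 1 just below it (log2 -0.11, SE 0.12, edgeR adjusted p = 0.538).

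Ltb and Tnf differed between the KO mice in opposite ways. Ltb stood at 56.5, 51.6, 52.8 and 60.3 CPM in WT, at 52.8 CPM in KO 1, inside the WT range, and at 144 CPM in KO 2 (log2 0.83, SE 0.334, edgeR adjusted p = 0.12). Tnf stood at 1.81, 2.13, 2.65 and 2.00 CPM in WT, at 8.96 CPM in KO 1 and at 1.19 CPM in KO 2 (log2 0.58, SE 0.802, edgeR adjusted p = 0.62). Tnfrsf9, a costimulatory receptor of activated T cells, followed Tnf, with 2.75, 3.47, 3.53 and 3.94 CPM in WT, against 11.4 in KO 1 and 2.24 in KO 2 (edgeR adjusted p = 0.593). Tnfrsf26 and Fasl, the ligand of Fas, were high in KO 2 instead. Tnfrsf26 stood at 13.1, 14.4, 11.3 and 16.3 CPM in WT, against 7.32 in KO 1 and 32.9 in KO 2 (edgeR adjusted p = 0.529), and Fasl at 0.125 to 0.604 CPM in WT, against 0.205 in KO 1 and 5.22 in KO 2 (edgeR adjusted p = 0.126).

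**Figure D5:**
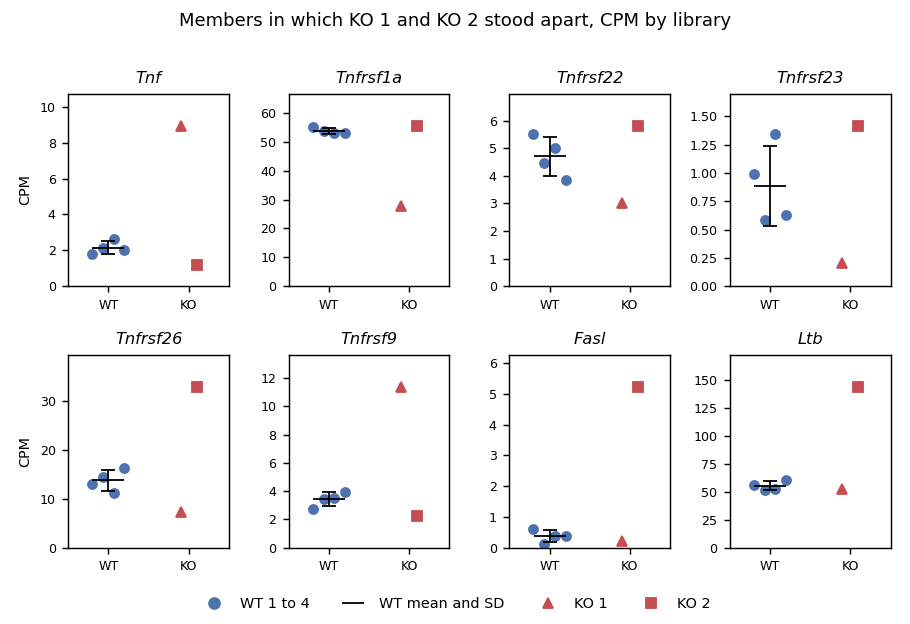
CPM in each library of 8 members in which KO 1 and KO 2 stood apart, on linear axes from 0; blue circles are WT 1 to 4 with mean and SD in black, red triangles KO 1 and red squares KO 2. KO 1 is the highest library for Tnf and Tnfrsf9, and KO 2 for Ltb, Fasl and Tnfrsf26.

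The 2 KO libraries lay on opposite sides of the WT range in 6 of 28 members (21.4%), a share near the 21.6% of all tested genes. For these and other members that were not called, the result depended on which KO mouse was kept, each lone KO mouse being assumed to vary as the WT mice do and sex being left in the model. Without KO 2, the only males were KO 1 and WT 4, so the change was that of KO 1 over WT 4 alone. The log2 change was then 2.15 for Tnf and 1.52 for Tnfrsf9. It was -0.96 for Tnfrsf1a, -1.20 for Tnfrsf18, -0.70 for Tnfrsf1b, -1.17 for Tnfrsf26 and -0.20 for Ltb. Ltb in KO 1 lay inside the WT range, and without the sex term its change was -0.0805. Without KO 1, Ltb (1.43), Fasl (3.70) and Tnfrsf26 (1.37) were called higher and Tnfrsf4 (-1.91) and Tnfrsf12a, which had no count in KO 2, lower. Leaving out WT 4, which makes KO 1 the only male, added the same 5 calls among the 28 members as leaving out KO 1. KO 1 and KO 2 differed in sex as well, so that mouse and sex cannot be told apart.

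A pair of receptor genes known from B cells had most of their counts in KO 2. Tnfrsf13c, the receptor for BAFF, had 1, 2, 4 and 1 counts in WT, 0 in KO 1 and 167 in KO 2 (12.5 CPM). Cd40, the costimulatory receptor of B cells and other antigen-presenting cells, had 0, 0, 0 and 3 counts in WT, 0 in KO 1 and 38 in KO 2 (2.84 CPM). Neither passed the filter, since high counts in 1 library are not enough for it. Defining markers of B cells moved with them: Ms4a1 was at 36.0 CPM and Pax5 at 7.54 CPM in KO 2, and both were at 0 in the other 5 libraries. Mature T-cell markers were also highest in KO 2, with Cd8a at 858 CPM there, 66.9 CPM in KO 1 and at most 3.72 CPM in WT. The part of these cells or transcripts in the levels of Tnfrsf13c, Cd40, Ltb, Fasl and the other members was not tested.

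In all, 16 members were not tested. These include 7 genes with no count in any library: Cd40lg, Cd70, Tnfsf12, Tnfsf13, Tnfsf18, Tnfrsf11b and Tnfrsf17. Tnfsf12 and Tnfsf13 overlap a readthrough gene and an antisense RNA in the annotation, and reads shared by genes may have gone uncounted, so their 0 cannot be read as no expression. Tnfsf4, the ligand of OX40, had 5, 4, 2 and 2 counts in WT, 34 in KO 1 (1.74 CPM) and 0 in KO 2. Tnfrsf25, Tnfsf13b, Eda2r, Tnfsf15 and Tnfsf13os had at most 6 counts in any library. Between 33 and 36 of the 44 members had at least 1 count in a WT library and 28 and 30 in KO 1 and KO 2, which were also sequenced less deeply. Of the tested members below 5 CPM, Tnfrsf12a, Tnfrsf4, Tnfsf9 and Tnfrsf23 had at most 1.58 CPM in every library, and Tnfrsf22 lay at 3.87 to 5.51 CPM in WT, against 3.02 and 5.82 CPM in KO.

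Genes that carry the family's signals were described with 3 lists of 48 genes, all of which were tested. 19 were called (39.6%), 14 higher and 5 lower, against the 30.7% of all genes given above. The count was 11 and 12 without WT 1 and WT 2, where 12.6% and 12.9% of all genes were called, and 35, 35 and 36 without WT 4, KO 1 and KO 2, where 62.9%, 61.9% and 68.5% were called. Of 18 adaptors and parts of the death complex, 6 were higher and 1 lower. Traf5, an adaptor of CD27, OX40 and the lymphotoxin β receptor, stood at 0.833 CPM ± 0.335 (SD, n = 4) in WT, against 25.2 and 15.1 CPM in KO (log2 4.44, SE 0.401, edgeR adjusted p = 0.00177). Edaradd, the adaptor of the ectodysplasin receptor, rose from 8.77 CPM ± 1.50 to 64.2 and 93.0 CPM (edgeR adjusted p = 0.000355), while Edar itself had no count in any library. Casp8, the caspase that death receptors activate, rose from 78.2 CPM ± 1.52 to 174 and 153 CPM, and Birc3, a ubiquitin ligase of TNF receptor complexes, from 12.1 CPM ± 0.553 to 23.7 and 28.7 CPM.

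Of 19 genes for ubiquitin and kinase steps, 4 were higher and 2 lower, or 31.6% called, a share near that of all genes (30.7%). Tnfaip3, which encodes A20, a brake on NF-kB, fell by 1.03 on the log2 scale (edgeR adjusted p = 0.00602), from 175 CPM ± 44.2 in the WT mice to 95.8 and 86.3 CPM. Tab1, Tnip1 and Ikbke rose by 0.60 to 0.63 on the log2 scale. Of 11 NF-kB subunits and inhibitors, 4 were higher and 2 lower. Nfkb1, which encodes the precursor of a main NF-kB subunit, rose from 175 CPM ± 1.87 in the WT mice to 458 and 383 CPM (log2 1.24, SE 0.0825, edgeR adjusted p = 0.000713). Relb, the subunit of the alternative route downstream of the lymphotoxin β receptor, rose from 6.39 CPM ± 0.665 to 16.0 and 16.1 CPM. The inhibitor gene Nfkbia rose from 23.3 CPM ± 1.02 to 55.6 and 113 CPM, and Nfkbid, an atypical inhibitor, fell by 1.17 on the log2 scale. RNA levels of these genes do not show whether any signal was active.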

How the data were processed

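The authors deposited raw counts for each Entrez gene, which the submitters' processing notes tie to featureCounts and mm10. The aligner and the strand setting of the counting are not given in the sources read here, and the library kit (SMART-Seq v4) does not mark strand, so members that overlap another gene of the table (Cd27, Tnfrsf4, Tnfrsf12a, Tnfrsf13b, Tnfrsf18 and Tnfsf9) may share or lose reads. Symbols and coordinates came from RefSeq (GRCm38.p6), which matched 25275 of 26332 identifiers. All 26332 genes in 6 libraries entered edgeR 4.0.16 (R 4.3.3), with filterByExpr by genotype (count minimum 10), TMM scaling, sex as an additive term and a robust quasi-likelihood F-test with 3 residual degrees of freedom. P-values were Benjamini-Hochberg adjusted over 13294 genes. CPM are TMM scaled, and RPKM divide them by the deposited gene length. A floor of 3 counts covers counting error only, since amplified reads are not independent molecules. Between WT libraries, chi-square per degree of freedom was at least 3.37, above the counting noise expected of 1 library sequenced again.

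Members, gene lists and tests were chosen with earlier results of these data known, and counts of members are descriptions. Values in every library are given for members that were called or reached 5 CPM in either group mean, and up to 4 called genes per signalling list, by size of change among those at 5 CPM or more. Other members are named by counts or range. Alternatives were 2 other scalings, no filter, DESeq2 1.42.0, limma-voom (limma 3.58.1) with weights per genotype, no sex term, a replicate block, and leaving out each library.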

Additional observations from a re-analysis of the deposited data

Results flagged for a closer look

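In 8 members with counts in both KO libraries, the change had opposite signs in the 2 sexes and KO 2 lay outside the range of the 3 WT females. Members with opposite signs but KO 2 inside that range, such as Tnfrsf18, were not counted. The share of all tested genes that meet this rule was not computed, so the count is no trait of the family. The rule set no least size of change: Tnfrsf1a met it with 55.7 CPM in KO 2, against at most 55.2 CPM in WT. Each sex held 1 KO mouse, and this difference was not tested, since mouse and sex cannot be told apart. The log2 ratio of KO 2 over the mean of the 3 WT females was 3.82 for Fasl and 1.42 for Ltb, where KO 1 over WT 4 gave -0.917 and -0.192. It was 1.35 for Tnfrsf26, 0.544 for Tnfrsf23, 0.22 for Tnfrsf22 and 0.0441 for Tnfrsf1a, against -1.16, -1.63, -0.356 and -0.943 in the males. For Tnf and Tnfrsf9 the order was turned, with -0.879 and -0.537 in the females and 2.16 and 1.53 in the males. No WT library of the 28 tested members stood apart from the other 3 by Dixon's criterion.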

How the results depend on the processing

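All 13 called members kept their direction in all 16 alternatives, and Cd27, Ltbr and Tnfrsf19 were called in each. The 2 other scalings, DESeq2, the fit without the low-count filter and the fit without sex each called 13 members. Without the filter 37 members were tested, and 12 of the 13 called were those called with it: Tnfsf8 was lost (adjusted p = 0.0532, range over its alternatives 8.941e-05 to 0.39), and 1 receptor tested only there was added. With limma-voom and a weight per genotype, 1500 genes were called (987 higher, 513 lower), with 7 members, 5 receptors, 2 ligands and 11 signalling genes. Same-numbered libraries correlated at -0.15 (WT 1, KO 1) and 0.03 (WT 2, KO 2) in their deviations from the group means. With 2 KO libraries these deviations mirror each other, and KO 1 and KO 2 also differ in sex. The correlations therefore cannot show whether mice were paired by replicate number. With that number as a block, on 4 libraries and without sex, 717 genes were called, with 3 members, 3 receptors, 6 signalling genes and 0 ligands in edgeR (3 ligands at an unadjusted p under 0.05, and 5 called by DESeq2 on all 6 libraries).

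Leaving out 1 library with sex in the model gave 1665 (without WT 1) to 9473 (without KO 2) called genes, 9 to 21 members, 7 to 14 receptors, 2 to 8 ligands and 11 to 36 signalling genes. Without sex in the model, leaving out KO 1 gave 7178 genes, 20 members and 13 receptors, and leaving out KO 2 gave 8918 genes, 22 members, 15 receptors and 31 signalling genes. The lone KO library is then assumed to vary like WT.

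Reversals were seen only in members not called. With sex in the model, the log2 change over the left-out libraries ran from -0.91 to 3.70 for Fasl, -0.20 to 1.43 for Ltb, -0.85 to 2.15 for Tnf, -0.96 to 0.059 for Tnfrsf1a, -1.62 to 0.55 for Tnfrsf23, -0.51 to 1.52 for Tnfrsf9, -1.20 to 0.051 for Tnfrsf18, -0.37 to 0.22 for Tnfrsf22 and -1.17 to 1.37 for Tnfrsf26. For Tnfrsf12a, which had no count in KO 2, it ran from -8.15, a fitted value that is no bound, to 0.097. Without sex and without KO 1 it was -0.82 for Tnf, 0.065 for Tnfrsf1a, 0.31 for Tnfrsf22, 0.68 for Tnfrsf23 and -0.59 for Tnfrsf9. Without sex and without KO 2 it was -0.94 for Fasl, -0.081 for Ltb and -0.92 for Tnfrsf26. Tnfrsf22, at -0.0052, was at 0.010 with RLE size factors and 0.0094 with DESeq2, and Tnfrsf26 was at -0.21 with limma-voom. The causes were not tested. Depth limits the members below about 1 CPM, which had few counts in the KO libraries.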
